A study of Drosophila melanogaster with 73 samples.

Results

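The peptidoglycan recognition proteins of Drosophila melanogaster were followed through guts and abdominal fat bodies in which the transcription factors Foxo, Aop and Pnt had been driven. Gene identifiers of the 2 deposited count tables were matched to FlyBase symbols. The 10 genes chosen from the family, with earlier results of these data known, were all found, out of 11419 genes listed in either table. Of 10366 genes listed for the gut 10 were members, and of 11069 listed for the fat body 9, with PGRP-SC1a not analysed there. By role they fall into the catalytic PGRP-SC1a, PGRP-SC1b, PGRP-SC2, PGRP-LB and PGRP-SB1, the receptors PGRP-LC, PGRP-LE, PGRP-SA and PGRP-SD, and PGRP-LF, an inhibitor. In the gut the 3 PGRP-SC genes and PGRP-LE were lower in induced than in uninduced flies when averaged over genotypes, and in the fat body no member passed the test.

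Peptidoglycan is the cell wall polymer of bacteria, and proteins of this family carry a domain that binds it. In flies the membrane protein PGRP-LC and the intracellular PGRP-LE bind peptidoglycan of the diaminopimelic acid type and switch on the Imd pathway, which ends at the NF-kappaB factor Relish, while the secreted PGRP-SA and PGRP-SD act upstream of the Toll pathway. Catalytic members are amidases that cut peptidoglycan to less stimulatory pieces, and PGRP-LB and the PGRP-SC genes are known for restraining the Imd response to gut bacteria, as is PGRP-LF, a membrane protein without a signalling tail.

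All flies were mated adult females of the outbred Dahomey background bearing the w1118 mutation, and all carried the S106 GeneSwitch driver, which acts in gut and fat body and is switched on by the steroid RU486. They carried UAS transgenes for Foxo, for AopACT (the ETS repressor Aop made constitutively active), for PntP1 (an isoform of the ETS activator Pnt), for each pair of these, or for all 3, which makes 7 genotypes. Females were mated for 48 h and then fed for 6 days on food with 200 µM RU486 (induced) or without it (uninduced), and each library came from pooled organs. The aim of the design was to see how the 3 factors act alone and together on transcription. No flies with the driver and no transgene were included, so a response shared by all genotypes cannot be told apart from a response to RU486 itself.

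There were 36 gut libraries, 19 uninduced and 17 induced, and 34 fat body libraries, of which 16 were uninduced and 18 induced. Groups held 2 or 3 libraries, except uninduced Foxo+PntP1 guts with 1. Total counts per library were between 1598120 and 6145550 for guts and between 1138812 and 8257766 for fat bodies. Tissue labels matched the markers, since summed enterocyte markers were 6795 to 69626 CPM (counts scaled to a common library size by edgeR) in the gut and 40.3 to 2497 CPM in fat bodies, and fat body markers ran the other way (297 to 2812 against 24976 to 268425 CPM). Messenger RNA of pnt was called higher in all 4 induced gut genotypes with PntP1, foxo in Foxo and Foxo+AopACT only, and aop in Foxo+AopACT, in the triple genotype and in Foxo+PntP1, which does not carry AopACT. In the fat body foxo and aop were called in no genotype and pnt only in AopACT+PntP1. One fat body library, labelled Foxo+PntP1 uninduced replicate 1, held 114.8 CPM of pnt against 7.84 to 22.0 in the other 15 uninduced ones. Mitochondrial genes took 24.9% of counts in each of 2 gut libraries, replicate 3 of the uninduced triple genotype and replicate 2 of induced Foxo+PntP1, and no call of a member given below was lost when both were left out.

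The 3 PGRP-SC genes lie close together on chromosome arm 2R of BDGP6, all on the forward strand and each of 1 exon. CG14743, on the other strand, lies between PGRP-SC1a and PGRP-SC1b. PGRP-SC1a spans 2R:8709733-8710320, PGRP-SC1b 2R:8713446-8715094 and PGRP-SC2 2R:8716950-8717695. PGRP-SC1a and PGRP-SC1b are near-identical copies, so how their counts were split between them is uncertain. Of the other amidases, PGRP-LB lies at 3R:11452849-11460552 and PGRP-SB1 at 3L:16727299-16727989. Among the receptors, PGRP-LC lies at 3L:9338810-9348336, PGRP-LE at X:15801153-15803880, PGRP-SA at X:11561643-11562779 and PGRP-SD at 3L:7651180-7651900. PGRP-LF, at 3L:9349609-9351489, follows PGRP-LC on the same strand, and 602 bp of its exons overlap UGP on the other strand. With no statement on strand in the counting, the values of PGRP-LF are uncertain.

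Without induction, the family divided between the tissues. Per kb of exon, PGRP-SC2 was the most abundant member of the gut, with a lowest, median and highest level of 488, 1208 and 1994 CPM per kb over 19 uninduced libraries. No other member passed 83.8 CPM per kb in any of these libraries. The medians in the gut then ran from PGRP-LE (47.9 CPM per kb) and PGRP-LB (36.5) through PGRP-SC1a (24.0), PGRP-LC (12.4) and PGRP-SC1b (8.40) to PGRP-LF (4.24), PGRP-SD (2.90), PGRP-SA (1.96) and PGRP-SB1, which had no count in 10 of the 19 libraries. The ranges of PGRP-LE (39.7 to 67.1 CPM per kb) and PGRP-LB (20.1 to 56.2) overlapped, as did those of each further pair of neighbours in this order. Of the CPM that all members held together, PGRP-SC2 made up between 54.7% and 86.6% in uninduced guts (median 76.3%) and between 45.8% and 83.5% in induced ones (median 55.8%).

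Fat bodies held another set. There PGRP-LF (median 45.5 CPM per kb, range 15.6 to 91.8 over 16 libraries), PGRP-SB1 (37.7, range 15.8 to 51.1), PGRP-LC (31.5, range 23.3 to 50.1), PGRP-SD (28.3, range 12.2 to 52.4), PGRP-SA (19.0, range 14.0 to 40.3) and PGRP-LE (16.7, range 8.39 to 24.9) overlapped from each to the next. PGRP-LB followed at 6.11 CPM per kb, and PGRP-SC2 had a median of 3.58 with a highest library of 38.9. PGRP-SC1b had no count in 14 of the 16 libraries. Most of the rest was 36 counts in uninduced AopACT+PntP1 replicate 1, a library with a summed enterocyte level of 2370 CPM.

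**Figure D1:**
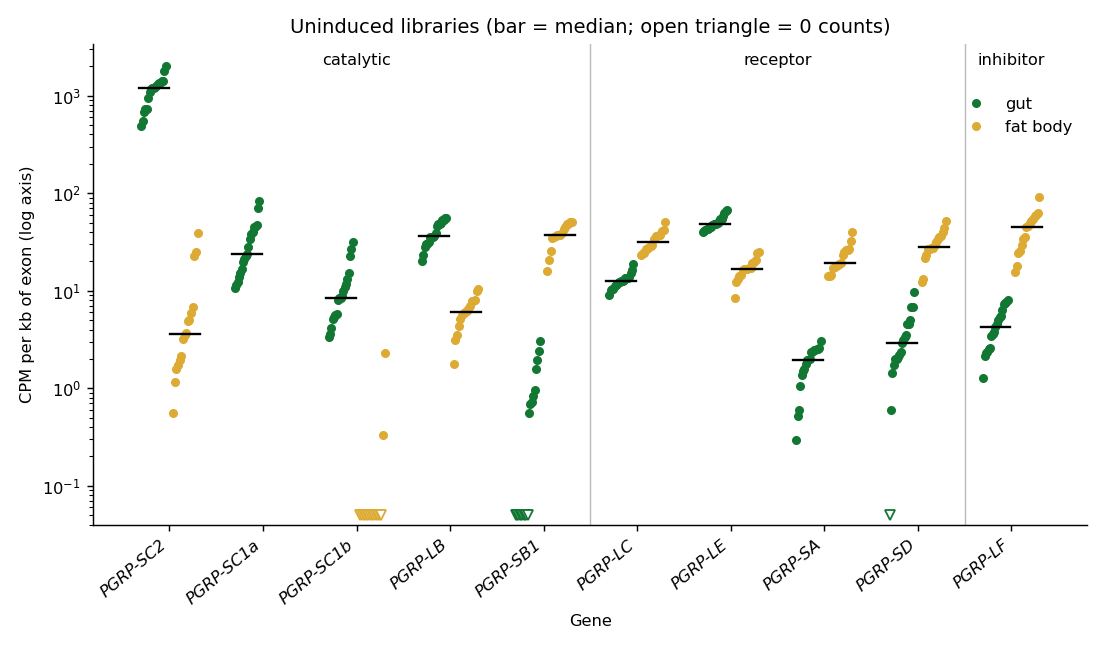
Level of each gene in CPM per kb of exon (log axis) in every uninduced library of both tissues, with the median as a bar and libraries without a count as open triangles. PGRP-SC2 stands at a median of 1208 CPM per kb in guts and 3.58 in fat bodies, while PGRP-SB1, PGRP-SA, PGRP-SD and PGRP-LF stand higher in the fat body.

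Each of the 9 members listed in both tables differed between the uninduced tissues by edgeR's quasi-likelihood test at a Benjamini-Hochberg adjusted p under 0.1, the threshold for every call below, where 74.1% of 9721 tested genes were called (34.0% higher in the gut, 40.1% lower). The amidases PGRP-SC2 and PGRP-SC1b were higher in the gut by 8.17 ± 0.38 (log2 difference ± SE, edgeR adjusted p = 1.66e-23) and 7.40 ± 0.45 (edgeR adjusted p = 2.36e-16), the latter resting on few fat body counts. PGRP-LB was higher there by 3.10 ± 0.20 and the intracellular receptor PGRP-LE by 1.92 ± 0.11. Higher in the fat body were PGRP-SB1 (−6.36 ± 0.43), the Toll receptors PGRP-SA (−3.20 ± 0.25) and PGRP-SD (−2.93 ± 0.23), the inhibitor PGRP-LF (−3.05 ± 0.25) and the surface receptor PGRP-LC (−1.06 ± 0.13), all as gut minus fat body. The members called higher in the gut thus held most amidases and PGRP-LE. Those higher in the fat body were the amidase PGRP-SB1, the Toll receptors, PGRP-LC and PGRP-LF. PGRP-SA in the gut and PGRP-SC1b in the fat body were under the filter on low counts when those tissues were fitted alone. Both entered this fit through the tissue where they are high, so their calls were close to fixed in advance. PGRP-SB1 was near the floor in guts, with no count in 10 of 19 uninduced libraries.

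Genes of the pathways were compared between the tissues in the same fit. Of 17 genes of the Imd pathway, 12 were called, 10 higher in the gut and 2 lower, near the 74.1% of all genes called in this contrast, with a median difference of 0.25 on the log2 scale. The largest was that of pirk (4.44 ± 0.20), an intracellular inhibitor of PGRP-LC signalling. Of 15 Toll pathway genes, 12 were called lower in the gut and 2 higher (median −3.27), among them the proteases psh (−6.27 ± 0.25) and SPE (−5.48 ± 0.38) and the recognition protein GNBP3 (−5.68 ± 0.25), while Myd88, the adaptor of the Toll receptor, was higher in the gut (1.17 ± 0.11). All 8 antimicrobial peptide genes tested were called lower in the gut, as were 40.1% of all genes.

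PGRP-SC2 had the clearest induction response. In PntP1 guts its level was 1002, 875 and 701 CPM in the 3 uninduced libraries and 239 and 212 CPM in the 2 induced ones. In Foxo+PntP1 guts the single uninduced library had 821 CPM and the induced ones 234, 196 and 260.1 CPM. In guts of the triple genotype, uninduced libraries had 889, 1011 and 414 CPM and induced ones 216, 385 and 368 CPM. Here and below, how many of all genes stood apart within a single genotype was not counted. For PGRP-SC2 the induced libraries lay below the uninduced ones in all 3 genotypes, with the closest pair in the triple genotype. The fold changes were −1.98 ± 0.37 in PntP1 (log2 induced over uninduced ± SE, edgeR adjusted p = 0.00176), −1.85 ± 0.40 in Foxo+PntP1 (edgeR adjusted p = 0.00931) and −1.24 ± 0.31 in the triple genotype (edgeR adjusted p = 0.0432).

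In Foxo+AopACT guts, which carry no PntP1, PGRP-SC2 fell from 1488, 901 and 1052 CPM to 398 and 275 CPM, a change of −1.82 ± 0.36 (edgeR adjusted p = 0.00805). Neither single transgene of that pair gave a call. Foxo guts had 1338, 987 and 1045 CPM without and 1013, 682 and 864 CPM with induction, a change of −0.40 ± 0.30 with a 95% interval of −1.02 to 0.22. AopACT guts had 911, 549 and 929 CPM without and 678 and 1094 CPM with induction, a change of 0.22 ± 0.34 (−0.48 to 0.91). In both, induced and uninduced libraries overlapped. In AopACT+PntP1 guts the induced libraries (226 and 265 CPM) lay below the uninduced ones (364, 506 and 548 CPM), yet the change of −0.90 ± 0.35 (−1.62 to −0.19) was not called (edgeR adjusted p = 0.465).

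Some of these calls rested on single libraries. The Foxo+AopACT call was lost without induced replicate 2 (edgeR adjusted p = 0.196), and the triple genotype's without induced replicate 1 (edgeR adjusted p = 0.366, change −0.95) or without uninduced replicate 2 (edgeR adjusted p = 0.269, change −0.87). The PntP1 and Foxo+PntP1 calls were kept whichever of their libraries was left out, but uninduced Foxo+PntP1 is a single library that cannot be left out. With each genotype fitted alone, the PGRP-SC2 calls in Foxo+PntP1 (edgeR adjusted p = 0.408) and in the triple genotype (edgeR adjusted p = 0.424) were lost.

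PGRP-SC1a and PGRP-SC1b had lower levels than PGRP-SC2 and were called lower in some of the same genotypes. In Foxo+AopACT guts PGRP-SC1a had 14.1, 9.84 and 8.91 CPM uninduced and 1.45 and 0.381 CPM induced. PGRP-SC1b had 8.90, 5.56 and 8.51 CPM uninduced and 1.81 and 1.14 CPM induced. Both fell, with log2 changes of −3.51 ± 0.88 (edgeR adjusted p = 0.0467) and −2.33 ± 0.59 (edgeR adjusted p = 0.0486). In PntP1 guts PGRP-SC1a had 22.2, 19.7 and 23.7 CPM uninduced against 6.61 and 5.31 CPM induced (−1.89 ± 0.65, edgeR adjusted p = 0.171), and PGRP-SC1b had 19.2, 21.7 and 13.9 CPM against 6.61 and 3.65 CPM. Here the groups did not overlap for either gene, an order not counted over all genes. Of the pair edgeR called only PGRP-SC1b (−1.82 ± 0.47, edgeR adjusted p = 0.0368). PGRP-SC1a in PntP1 was called by DESeq2 (adjusted p = 0.0697), by edgeR with the genotype fitted alone (adjusted p = 0.000274) and by edgeR without the libraries rich in mitochondrial counts (adjusted p = 0.099).

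With so few counts these calls were fragile. In Foxo+AopACT the PGRP-SC1a call was lost without uninduced replicate 1, induced replicate 1 or induced replicate 2, and the PGRP-SC1b call without any of these or uninduced replicate 3. In PntP1 the PGRP-SC1b call was lost without uninduced replicate 1, uninduced replicate 2 or induced replicate 2, with an edgeR adjusted p of at most 0.713 in all these cases. Since the 2 genes share near-identical sequence, they were also counted as 1 gene, a choice made after seeing the data, which gave −2.94 in Foxo+AopACT (edgeR adjusted p = 0.0105), −1.87 in PntP1 (edgeR adjusted p = 0.0418) and no other genotype's call.

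Elsewhere the pair was uncalled. In AopACT guts, where the estimate for PGRP-SC2 was 0.22, PGRP-SC1a had 12.5, 7.15 and 26.6 CPM uninduced and 5.25 and 8.04 CPM induced (−1.19 ± 0.64), and the groups overlapped. In Foxo+PntP1 guts PGRP-SC1a had 6.27 CPM uninduced and 3.97, 0 and 1.86 CPM induced, and PGRP-SC1b had 5.98 CPM against 2.21, 2.15 and 2.09 CPM. PGRP-SC1b in AopACT guts had 9.62, 6.79 and 17.9 CPM uninduced and 4.32 and 4.18 CPM induced (−1.43 ± 0.48, edgeR adjusted p = 0.579), and in Foxo guts 9.22, 16.3 and 13.3 CPM against 5.68, 6.15 and 6.63 CPM (−1.08 ± 0.40, edgeR adjusted p = 0.58). Induced PGRP-SC1b libraries lay below the uninduced ones in each of these genotypes, an order not counted over all genes within single genotypes. In the triple genotype PGRP-SC1b had 14.6, 13.8 and 25.2 CPM uninduced against 5.23, 13.9 and 8.23 CPM, where the groups overlapped by 1 library.

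**Figure D2:**
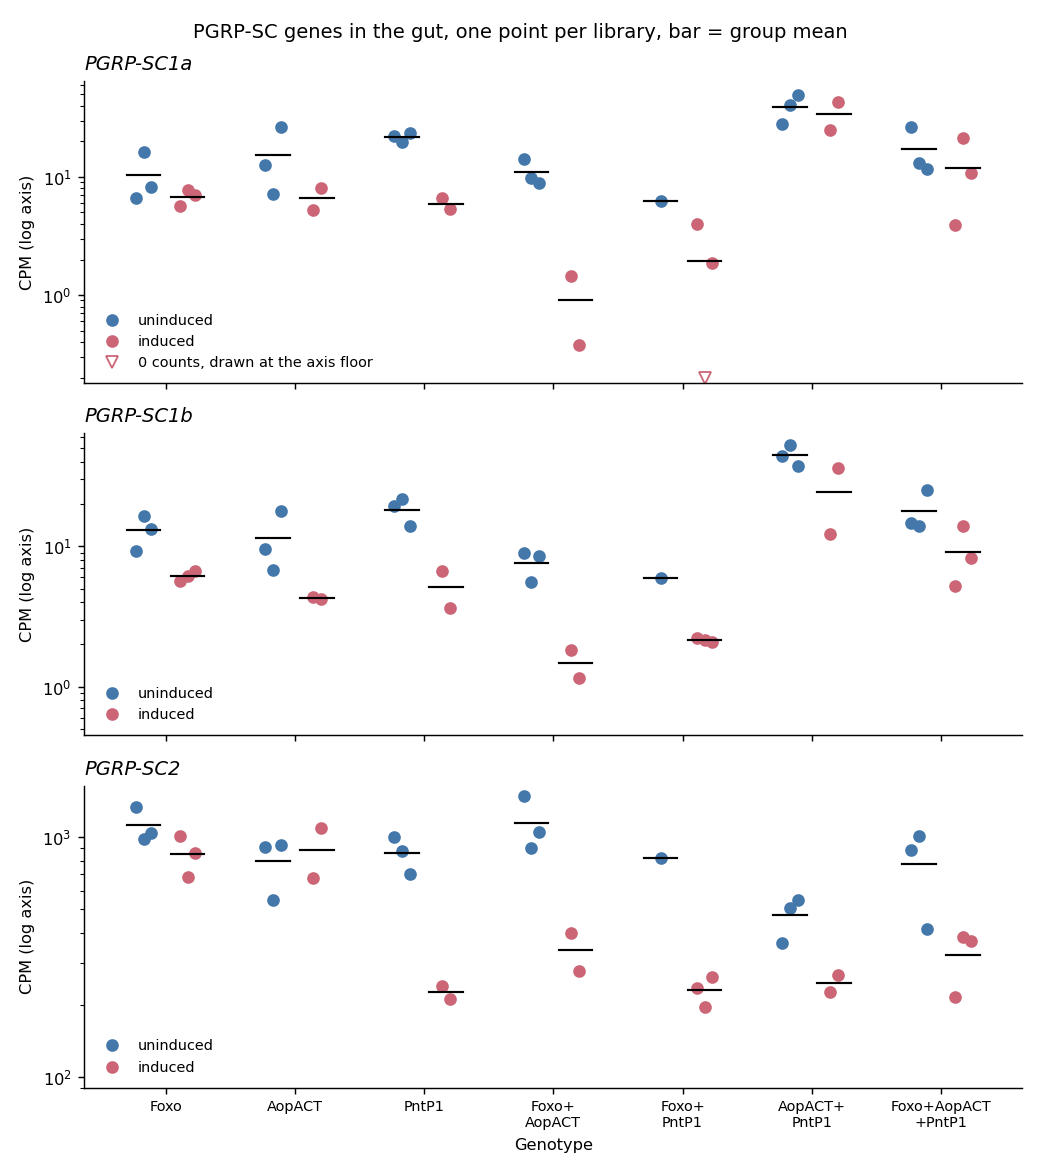
CPM (log axis) of PGRP-SC1a, PGRP-SC1b and PGRP-SC2 in every gut library by genotype, uninduced and induced, with group means as bars. PGRP-SC2 falls from between 701 and 1002 CPM to 239 and 212 CPM in PntP1, and in AopACT its induced libraries (678 and 1094 CPM) overlap the uninduced ones.

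Across the gut, members were called 7 times in 63 tests over the 7 genotypes, all 7 lower, against 20 at an unadjusted p under 0.05 and 9 with DESeq2. Foxo+AopACT gave 3 of 9 tested members (1.29% of all 9270 genes were called lower there), PntP1 gave 2 (1.59%), Foxo+PntP1 gave 1 (1.65%) and the triple genotype 1 (1.05%). In either direction 2.13%, 3.04%, 2.79% and 1.64% of genes were called in these genotypes. Foxo, AopACT and AopACT+PntP1 gave 0 by edgeR and by DESeq2, and 1, 1 and 2 members at an unadjusted p under 0.05, beside 0.507%, 0.291% and 0.787% of genes called in either direction.

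Averaged over the 7 genotypes, 4 of 9 tested members were called and all 4 were lower, against 6 at an unadjusted p under 0.05 and 5 with DESeq2. Of all genes 6.45% were called lower and 11.1% in either direction. The log2 changes were −1.14 ± 0.13 for PGRP-SC2 (edgeR adjusted p = 6.41e-07), −1.42 ± 0.18 for PGRP-SC1b (edgeR adjusted p = 5.49e-06) and −1.38 ± 0.26 for PGRP-SC1a (edgeR adjusted p = 0.000685). For PGRP-LE the change was −0.47 ± 0.09 (edgeR adjusted p = 0.00155). Over all tested genes the median was 0.0047. Every induced library lay below every uninduced one in 6 of 7 genotypes for PGRP-LE and PGRP-SC1b, in 5 for PGRP-SC2 and in 3 for PGRP-SC1a, and 0.529%, 1.2% and 7.06% of genes did so in at least 6, 5 and 3 genotypes.

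The guts had been prepared in 3 experimental blocks, and the mean response was taken within each. Over genotypes with both conditions in a block, the difference of log2(CPM + 0.5) for PGRP-SC2 was −1.60 in block A (lower in 4 of 4 genotypes), −0.70 in block C (3 of 4) and −0.94 in block D (6 of 7). For PGRP-SC1b it was −1.39, −1.0 and −1.44, for PGRP-SC1a −1.85, −0.37 and −1.31, and for PGRP-LE −0.38, −0.53 and −0.41 in the same blocks. The direction was the same in all 3 blocks for all 4 genes. These libraries also gave the calls, so the blocks add no separate support, and the share over all genes was not counted. Uncalled PGRP-LB (0.05, 0.50 and 0.05) and PGRP-SB1 (0.28, 0.32 and 1.02) also kept their direction, while the remaining members did not. For PGRP-SC2 in the triple genotype the blocks were uneven, at −2.04, −1.39 and −0.17 in blocks A, C and D, whereas Foxo+AopACT gave −1.90 in A and −1.93 in D, and PntP1 −2.07 and −1.72.

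Some markers of enterocytes, the absorptive cells of the gut, were lower in the same libraries. Of 7 such markers 3 were called lower in the mean response, where 6.45% of all genes were. They were the digestive proteases Jon25Bi (−1.68 ± 0.25), betaTry (−1.09 ± 0.31) and Jon65Aiii (−0.67 ± 0.16), and the median over the list was −0.61. The other 4 were not called, at −0.61 ± 0.25 for the trypsin gene alphaTry, −0.07 ± 0.08 for Myo31DF, 0.17 ± 0.18 for nub and 0.36 ± 0.29 for the amylase gene Amy-p. The summed level of the list was 16173 to 69626 CPM in uninduced guts (median 45095) and 6795 to 45988 CPM in induced guts (median 29289). Their part in the fall of PGRP-SC2 was not tested, and in such bulk samples fewer cells of a type and less RNA per cell cannot be told apart.

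The response of PGRP-SC2 differed between genotypes in the test of that difference. It was the single member called for the genotype by induction interaction (edgeR adjusted p = 0.0388, 6 degrees of freedom), where 2.45% of genes were called and 1 member had an unadjusted p under 0.05. The call was lost without AopACT uninduced replicate 2 or AopACT induced replicate 2 (edgeR adjusted p of at most 0.153). The mean response of the 4 genotypes with PntP1 was lower than that of the 3 without it, at a log2 difference of −0.83 ± 0.26 (edgeR adjusted p = 0.0854, where 2.09% of genes were called lower and 4.25% in either direction), and this call was lost on leaving out any of 20 of 35 libraries, with values from −0.93 to −0.73. The same contrast for Foxo was −0.44 ± 0.26 and for AopACT 0.48 ± 0.27, neither called for any member by edgeR or DESeq2 and with no member at an unadjusted p under 0.05. For Foxo 0.0431% and for AopACT 2.02% of genes were called. How far Foxo+AopACT departed from the sum of its single responses was called for 0 members by edgeR and by DESeq2. It was called for none of the 9270 genes, and 1 member had an unadjusted p under 0.05. A contrast without a call for any gene cannot show that the pair acted additively on PGRP-SC2.

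Among the receptors of the gut, edgeR called only PGRP-LE, in the mean response. PGRP-LE had 94.1, 131 and 97.0 CPM in uninduced and 71.1 and 58.7 CPM in induced PntP1 guts (−0.69 ± 0.26, edgeR adjusted p = 0.22 and DESeq2 adjusted p = 0.0793), and 103 CPM against 47.6, 78.4 and 59.7 CPM in Foxo+PntP1. In Foxo+AopACT it had 107, 88.2 and 122 CPM against 73.5 and 68.6 CPM, and in AopACT 112, 99.0 and 113 CPM against 105 and 125 CPM. In 6 genotypes all induced libraries lay below the uninduced ones and no genotype was called on its own, the estimates lying between −0.78 and −0.27 in those 6 and at 0.08 ± 0.25 in AopACT.

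PGRP-LC, the surface receptor of the same pathway, lay between 33.6 and 69.7 CPM in uninduced and between 38.6 and 73.7 CPM in induced guts. Its mean response of 0.24 ± 0.10 (0.03 to 0.44) was not called (edgeR adjusted p = 0.173), whereas DESeq2 called it higher (0.25, adjusted p = 0.0859), as did edgeR without AopACT+PntP1 induced replicate 1 (adjusted p = 0.0388) or AopACT induced replicate 1 (adjusted p = 0.0986). Its estimate thus lay on the other side of 0 from that of PGRP-LE. PGRP-SD, which acts with PGRP-SA upstream of Toll, had 1.52, 2.53 and 2.23 CPM uninduced against 6.28 and 4.31 CPM induced in PntP1, and 1.71 CPM against 4.85, 7.33 and 5.81 CPM in Foxo+PntP1. The induced libraries lay above the uninduced ones in these 2 genotypes, but Foxo+PntP1 has a single uninduced library. How many of all genes were ordered in this way was not counted. The fold changes of 1.29 ± 0.69 and 2.13 ± 0.93 were not called, and the mean response was 0.51 ± 0.28 (−0.07 to 1.09). PGRP-SA stayed between 0.303 and 3.26 CPM in all 36 gut libraries, under the filter on low counts.

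The remaining amidases and the inhibitor showed no called change in the gut. PGRP-LB, the amidase that degrades peptidoglycan of the diaminopimelic acid type, lay between 35.6 and 99.7 CPM uninduced and between 31.9 and 115.1 CPM induced, with a mean response of 0.14 ± 0.16 (−0.20 to 0.47). PGRP-LF lay between 1.71 and 10.8 CPM uninduced and between 3.24 and 12.1 CPM induced, with a mean response of 0.20 ± 0.23 (−0.27 to 0.68). PGRP-SB1 did not pass 3.43 CPM or 9 counts in any gut library. Near that floor its mean within-block differences were positive, at 0.28, 0.32 and 1.02 in blocks A, C and D. The interval for PGRP-LB does not hold a fall as large as that of PGRP-SC2.

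**Figure D3:**
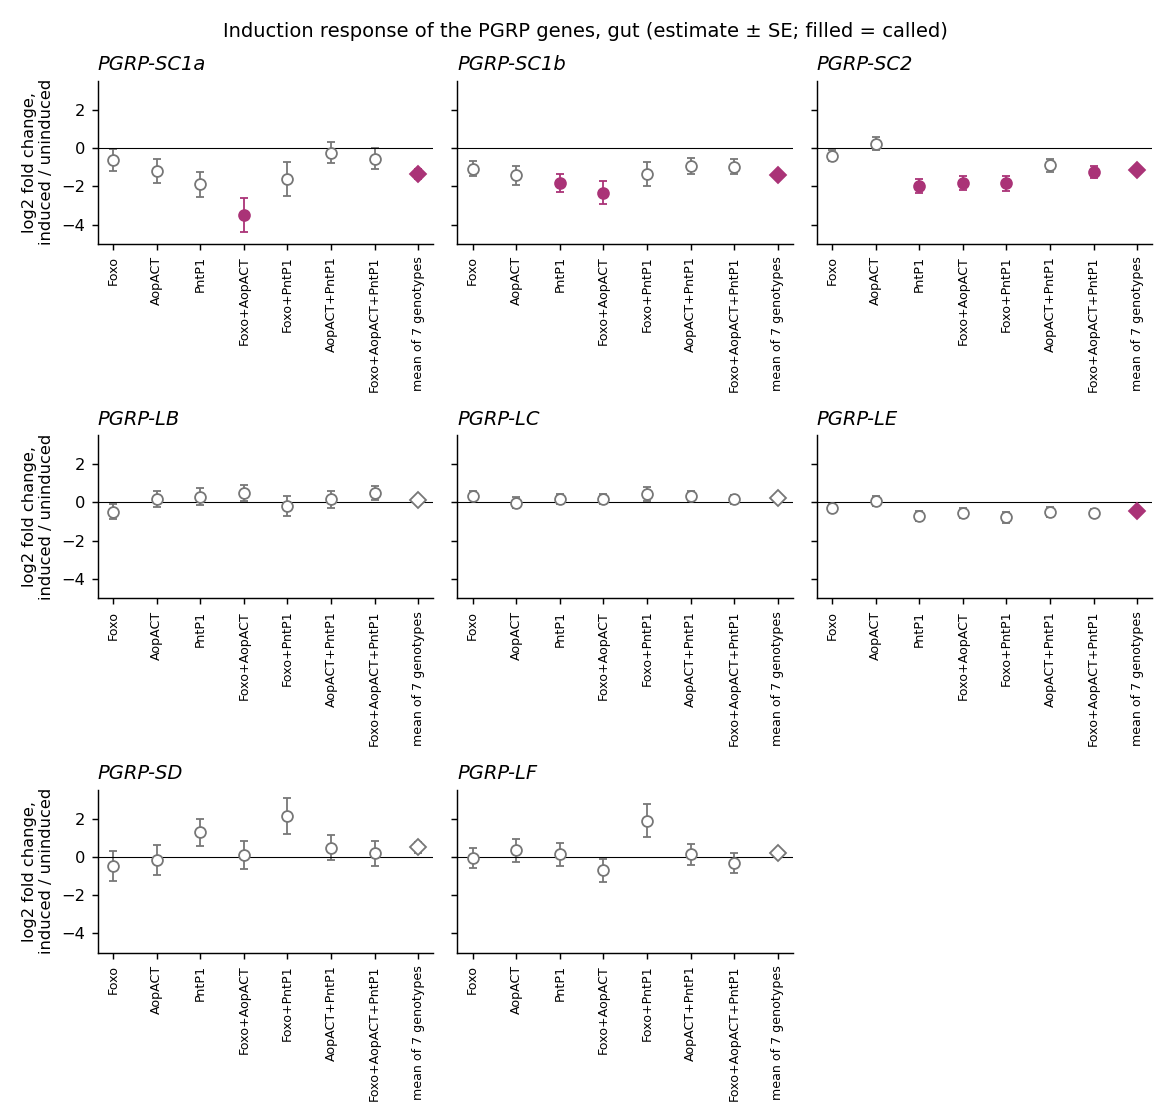
Log2 fold change of induced over uninduced guts for each tested gene except PGRP-SB1 by genotype, as estimate ± SE, with filled points for calls. Calls are limited to PGRP-SC2 in 4 genotypes, PGRP-SC1b in 2 and PGRP-SC1a in 1, and all point downwards.

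In the fat body none of 56 tests of 8 members over 7 genotypes was called by edgeR, against 9 at an unadjusted p under 0.05 and 3 with DESeq2. Few genes of any kind were called there, at 0.411% of 9734 in AopACT, 0.123% in AopACT+PntP1, 0.0308% in Foxo+AopACT, 0.0103% in PntP1 and in the triple genotype, and 0 in Foxo and Foxo+PntP1. The largest estimates among the fat body's own members were in AopACT. PGRP-SA had 19.1 and 41.0 CPM uninduced and 7.43 and 6.89 CPM induced, and PGRP-SB1 had 30.2 and 31.8 CPM uninduced and 4.34 and 9.54 CPM induced. Both pairs of groups stood apart, and how many of all genes did so in this genotype was not counted. The changes were −2.04 ± 0.50 (edgeR adjusted p = 0.112) and −2.13 ± 0.59 (edgeR adjusted p = 0.2), and DESeq2 called both (adjusted p = 0.0128 and 0.0386). PGRP-SD had 24.4 and 37.8 CPM uninduced against 16.1 and 15.6 CPM induced in the same genotype (−0.85 ± 0.46). In these libraries the fat body markers summed to 38007 and 268425 CPM uninduced and 24976 and 29471 CPM induced, with a list median of −1.73 and 0 of 6 called by edgeR, 4 at an unadjusted p under 0.05 and 1 by DESeq2. Ovary and follicle cell markers summed to 654 and 17.9 CPM uninduced and 1736 and 2091 CPM induced. The part of these differences in the members' values was not tested.

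PGRP-SB1, a secreted amidase, went the other way in PntP1 fat bodies, with 16.0 and 22.7 CPM uninduced against 44.4 and 73.1 CPM induced (1.47 ± 0.56, interval 0.30 to 2.63), without a call. Its response in the 4 genotypes with PntP1 exceeded that in the 3 without by 1.46 ± 0.39 (edgeR adjusted p = 0.176, where 0.452% of genes were called and DESeq2 called PGRP-SB1 alone of 8, with 3 members at an unadjusted p under 0.05). In Foxo fat bodies PGRP-SD had 28.8, 15.4 and 26.3 CPM uninduced and 15.2, 6.43 and 16.5 CPM induced (−0.91 ± 0.37, edgeR adjusted p = 0.203), and the groups overlapped.

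PGRP-LC had 106, 106 and 101 CPM uninduced and 188 and 133 CPM induced in Foxo+PntP1 (0.65 ± 0.35), where the first uninduced library is the one with high pnt, and its mean response was −0.01 ± 0.13 (−0.29 to 0.26). The mean response of PGRP-LE in the fat body was 0.00 ± 0.11 (−0.22 to 0.22), which does not hold its fall in the gut. The difference between the tissues' responses was itself not tested. PGRP-LB had a mean response of 0.04 ± 0.21 (−0.39 to 0.47) and PGRP-LF one of −0.29 ± 0.19 (−0.68 to 0.09). No member was called for the mean response by edgeR or DESeq2, and 1 had an unadjusted p under 0.05, beside 0.277% of genes called. The interaction gave 0 members by edgeR, 4 at an unadjusted p under 0.05 and 3 by DESeq2 (0.113% of genes called), and the departure from additivity 0, 3 and 2 (0.0719%). The contrasts with minus without AopACT and Foxo gave 0 by both tools, with 1 and 0 at an unadjusted p under 0.05 (0.0514% and 0 of genes).

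PGRP-SC2 varied widely in the fat body, where its highest uninduced levels were in the libraries with the most enterocyte marker RNA. It had 29.0 and 1.45 CPM in uninduced AopACT+PntP1 fat bodies, where the enterocyte markers summed to 2370 and 119 CPM, and 0, 0 and 3.20 CPM in induced ones, where they summed to 303, 103 and 1110 CPM. It had 17.0 CPM in Foxo+PntP1 uninduced replicate 3, with an enterocyte sum of 2497 CPM, and 18.6 CPM in Foxo uninduced replicate 1, with 929 CPM. These 3 libraries rank highest among the uninduced ones on both measures, whereas AopACT+PntP1 induced replicate 3 had a high enterocyte sum (1110 CPM) with 3.20 CPM of PGRP-SC2. In AopACT it had 1.59 and 2.39 CPM uninduced against 12.7 and 33.7 CPM induced (3.82 ± 1.37, edgeR adjusted p = 0.55), with enterocyte sums of 40.3 and 196 CPM against 287 and 574 CPM. The part of gut tissue in these levels was not tested.

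**Figure D4:**
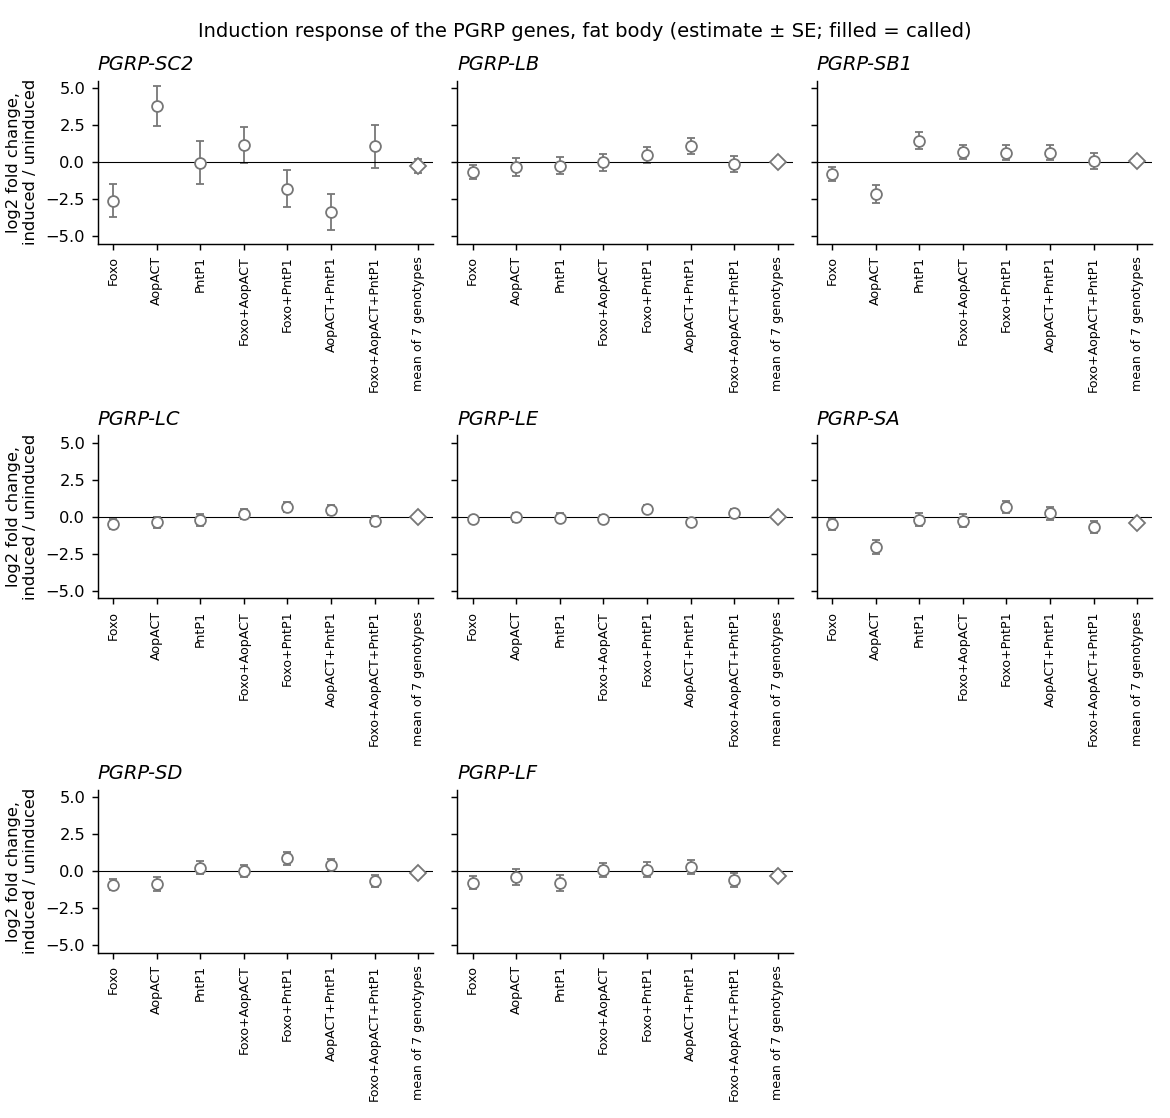
Log2 fold change of induced over uninduced fat bodies for each tested gene by genotype, as estimate ± SE, where no point is filled since none was called. PGRP-SA and PGRP-SB1 lie lowest in AopACT (−2.04 and −2.13), and PGRP-SC2 has the widest errors.

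Of the other family members listed in the tables, PGRP-LA and PGRP-LD were not called in any gut genotype or in the gut mean response (0.20 ± 0.12 and −0.08 ± 0.10), and PGRP-LA was higher in the uninduced gut than in the fat body by 1.67 ± 0.15 (edgeR adjusted p = 3.98e-14). Exons of PGRP-LD overlap other genes over 3563 bp, so its counts are uncertain. PGRP-SB2, next to PGRP-SB1 on 3L, did not pass 3.15 CPM in fat bodies.

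The pathways downstream of the receptors were read from lists of their genes. In the gut mean response 0 of 17 Imd pathway genes were called by edgeR, with 1 at an unadjusted p under 0.05 and 1 by DESeq2, and their median was 0.06. Of 12 tested Toll pathway genes 0 were called by edgeR, 0 at an unadjusted p under 0.05 and 0 by DESeq2, with a median of 0.13. Of 8 antimicrobial peptide genes, targets of these pathways, 2 were called higher by edgeR, where 432 of 9270 genes were, with 2 at an unadjusted p under 0.05 and 1 by DESeq2: Dro (2.66 ± 0.67, edgeR adjusted p = 0.0125), which encodes drosocin, and DptB (2.79 ± 0.96, edgeR adjusted p = 0.083), which encodes a diptericin. Levels of the whole list were low, summing to between 1.93 and 95.9 CPM in uninduced guts (median 8.43) and between 3.45 and 182 CPM in induced guts (median 11.0).

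The lysozymes, another class of enzymes that cut peptidoglycan and are made in the gut, were mostly lower in induced guts. Of 7 in the list, 5 were called lower in the gut mean response and 1 higher, with a median of −1.90. Among all 9270 genes, 598 were called lower and 432 higher there. The log2 changes were −2.38 ± 0.18 for LysB (edgeR adjusted p = 5.85e-10), −1.99 ± 0.18 for LysE, −1.95 ± 0.20 for LysC and −1.90 ± 0.21 for LysD, while LysX rose by 0.75 ± 0.19. LysD alone had 595 to 8878 CPM in uninduced guts (median 4660) and 160.0 to 10845 CPM in induced ones (median 1041), so its range, unlike its median, did not separate the conditions. Over the 7 genotypes 21 of 49 lysozyme tests were called by edgeR and 30 by DESeq2, beside 0.291% to 3.04% of all genes by edgeR. In the fat body 0 of 42 were called by edgeR, at an unadjusted p under 0.05 or by DESeq2, and the lists of Imd genes, Toll genes and their targets had 0 of 119, 0 of 105 and 0 of 70 called by edgeR (8, 16 and 14 at an unadjusted p under 0.05, and 1, 11 and 1 by DESeq2).

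**Figure D5:**
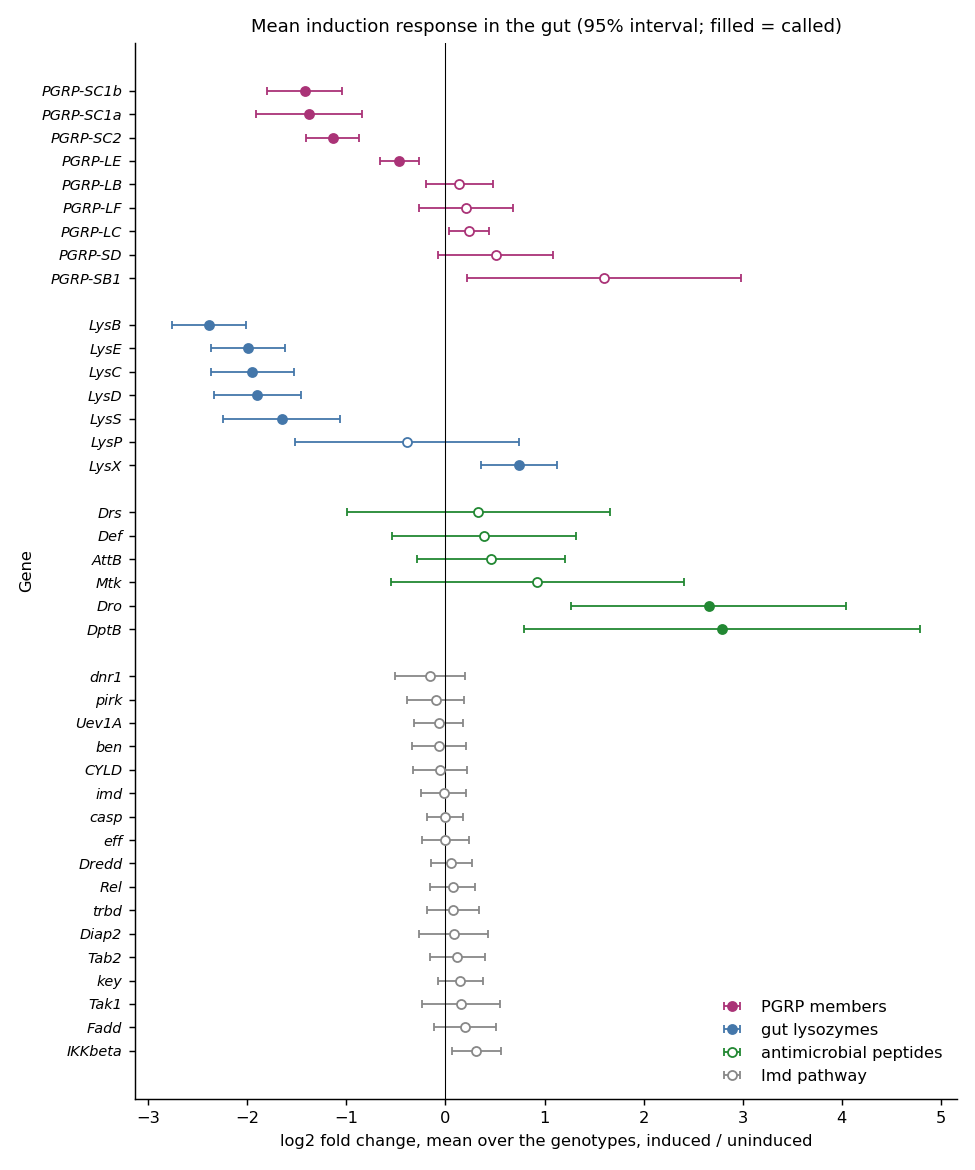
Log2 fold change of induced over uninduced guts, averaged over the 7 genotypes, with its 95% interval. Genes shown are the family, the Imd pathway, antimicrobial peptides and lysozymes, with filled points for calls. PGRP-SC2 (−1.14), PGRP-SC1a (−1.38) and PGRP-SC1b (−1.42) lie on the same side as LysB (−2.38), and the Imd pathway genes have no call.

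As a description over all 36 gut libraries, the genes whose log2 CPM followed PGRP-SC2 most closely were CG18180 (Pearson's r = 0.88), LysD (0.87) and LysB (0.85). In 34 fat body libraries the closest to PGRP-SB1 were CG16743, CG30344 and NimB3 (0.76 each), and the closest to PGRP-SD were CG1572 (0.79), Surf4 (0.78) and Tsp42Ed (0.76). These libraries share genotypes and blocks, and the correlations carry no test.

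Genes next to the PGRP-SC cluster did not all share its response. Within 20 kb, the protease gene Jon44E fell in the gut mean response (−1.02 ± 0.13, edgeR adjusted p = 7.36e-06), as the enterocyte proteases above did. CG14767 (0.01 ± 0.09, edgeR adjusted p = 0.98) and gcl (−0.06 ± 0.14, edgeR adjusted p = 0.867) were not called.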

How the data were processed

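Polyadenylated RNA was sequenced from pools of guts or fat bodies, and what was deposited per gene and library is a raw whole-number count. To make these counts, the authors removed duplicate reads by molecular identifier with Je, aligned the rest to fly genome release 6 with HISAT2 and ran featureCounts. The submitters' notes also name SAMtools, and the use of strand in counting is not stated there. Of 73 labelled libraries 70 had a column and 3 were not analysed here, and neither the variance-stabilised tables nor the pnt RNA interference experiment was used.

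Symbols matched 10287 of 10366 gut and 10982 of 11069 fat body identifiers, and gene positions come from Ensembl's BDGP6 annotation. Groups came from the labels and blocks A, C and D from the deposited tables. The members and all gene lists were chosen with earlier results of these data known.

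The test was the quasi-likelihood F test of edgeR 4.0.16 (R 4.3.3), run per tissue on 14 groups plus the block after TMM scaling and filterByExpr at a minimum count of 10, which kept 9270 genes for the gut and 9734 for the fat body. The spread was estimated over all groups of a tissue (biological coefficient of variation 0.313 in guts and 0.389 in fat bodies, on 20 and 18 residual degrees of freedom). The tissue comparison was fitted with the block on all libraries of both tissues together, and its contrast took the uninduced groups only. A call is a Benjamini-Hochberg adjusted p under 0.1 over all genes of a contrast, after the study's false discovery rate of 10%, whereas the study itself fitted DESeq2. Levels are CPM, log2 CPM used a prior count of 2, and within-block differences a pseudocount of 0.5. Levels of different genes were ranked per kb of merged exon. The share of PGRP-SC2 among the members and the sums over gene lists used CPM, not scaled by length. All 10 members were named, with PGRP-LA, PGRP-LD and PGRP-SB2, up to 4 called genes of the lowest p per list and comparison, and the 3 most correlated genes for PGRP-SC2, PGRP-SB1 and PGRP-SD. Other genes named (the PGRP-SC neighbours, Myd88, LysX, CG12224, mys) were picked after their values were seen.

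Replicates are pools of organs, so p-values measure the spread between pools. Chi-square per degree of freedom between replicates was at least 9.78 in 31 pairs of gut libraries and at least 8.84 in 26 pairs from fat bodies, so none were treated as 1 library. Deviations from group means correlated at a mean r of 0.0283 (gut) and 0.0321 (fat body) within blocks and −0.0143 and −0.0165 between them. The fits were tested on simulated data. Alternatives were RLE scaling, DESeq2 1.42.0, no filter, no replicate block, fits of single genotypes, and fits without the libraries numbered 02 and 05 (their labels differ between tissues), without the 2 gut libraries over 20% mitochondrial counts, without the fat body library with high pnt, and without each library in turn. Counting PGRP-SC1a and PGRP-SC1b as 1 gene was added after seeing the data.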

Additional observations from a re-analysis of the deposited data

Results flagged for a closer look

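PGRP-SC2 drew attention in the gut because its induction response differed between genotypes under a test of the difference itself. The genotype by induction interaction had an edgeR adjusted p of 0.0388, and the response with PntP1 minus that without it was −0.83 on the log2 scale (edgeR adjusted p = 0.0854). The interaction call was lost without AopACT uninduced replicate 2 or AopACT induced replicate 2. The PntP1 call was kept in 15 of 35 fits that left out 1 library, and was lost without the libraries numbered 02 and 05. The genotype estimates ran from −1.98 ± 0.37 in PntP1 to 0.22 ± 0.34 in AopACT. Foxo+AopACT, without PntP1, stood at −1.82 ± 0.36 and AopACT+PntP1, with it, at −0.90 ± 0.35. The difference between these 2 genotypes was not tested. Uninduced AopACT+PntP1 guts also started from 364 to 548 CPM, against 414 to 1488 CPM (median 920.1) in the other 16 uninduced libraries, and these ranges overlapped.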

How the results depend on the processing

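The mean gut responses of PGRP-SC1a, PGRP-SC1b, PGRP-SC2 and PGRP-LE and all 9 tissue differences kept their calls and directions under every alternative that gave a value, and no result reversed. Counts of members called that moved by over 1.5 times were these. In the fat body RLE scaling gave 1 in AopACT (from 0), and DESeq2 gave 2 in AopACT, 1 in AopACT+PntP1, 2 for the departure from additivity, 3 for the interaction and 1 for the contrast with minus without PntP1, each from 0. In the gut DESeq2 gave 4 in PntP1 (from 2). With each genotype fitted alone the gut gave 1 in Foxo (from 0), 4 in PntP1 (from 2), and 0 in Foxo+PntP1 and in the triple genotype (from 1 each), where PGRP-SC2 had edgeR adjusted p of 0.408 and 0.424. Without the libraries numbered 02 and 05, the gut contrast with minus without PntP1 gave 0 (from 1). Smaller gains were PGRP-LC with DESeq2 in the gut mean (5 from 4), PGRP-SC1a without the mitochondria-rich libraries in PntP1 (3 from 2) and PGRP-LB higher in Foxo+AopACT fitted alone (4 from 3). Leaving out each library in turn gave 0 to 3 in gut Foxo+AopACT, 0 to 1 in the triple genotype, the interaction and the contrast with minus without PntP1, 1 to 2 in PntP1, 1 to 1 in Foxo+PntP1 and 4 to 5 in the gut mean. In the fat body it gave 0 to 2 for the departure from additivity and 0 to 1 for Foxo and for with minus without PntP1. All other left-out counts were 0 to 0, or 9 to 9 between tissues. The single uninduced Foxo+PntP1 gut library could not be left out. Without the replicate block no count of members changed (3 in gut Foxo+AopACT, 2 in PntP1, 4 in the gut mean). PGRP-SA in the gut and PGRP-SC1b in the fat body were too shallow to test. Apart from the fewer samples in left-out fits, the causes were not tested.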

Other observations

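Uninduced guts were not alike in the PGRP-SC genes. In the 3 uninduced AopACT+PntP1 libraries PGRP-SC1a had 27.98 to 49.2 CPM, against 6.27 to 26.6 CPM in the other 16 (median 12.9), and PGRP-SC1b had 37.2 to 52.7 CPM against 5.56 to 25.2 CPM (median 13.6). PGRP-SC2 did not stand above the others in these libraries, at 364 to 548 CPM against 414 to 1488 CPM, and neither did another member. Of 9270 genes, 9 (0.0971%) lay above all other uninduced libraries in this way, among them CG12224 and mys, and 0.173% lay below. These are values without a test.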
